A study of Rattus norvegicus with 6 samples.

Results

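Surface and progenitor markers of gland and duct epithelium were followed in pancreatic duct glands of HIP and wild-type rats. The set was proposed as 9 genes whose products have been used to mark stem or progenitor cells in such epithelia, and 7 of them were read by their gene symbol among 15675 genes: Epcam, Cd44, Cd24, Alcam, Cd9, Prom1 and Bmi1. Lrig1 and Msi2, the other members, were not analysed here.

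HIP rats were Sprague-Dawley rats transgenic for human islet amyloid polypeptide (HIAPP), taken in a pre-diabetic state. In this line the transgene is driven by a rat insulin promoter and so acts in beta cells, and the glands themselves are not its intended site. Their controls were wild-type (WT) Sprague-Dawley rats. Ages are not given in the sources used here. Each group had 3 libraries, named by group and title number, HIP30, HIP2 and HIP3 against WT26, WT1 and WT4. Glands were picked by their morphology under a laser microdissection microscope and their total RNA was sequenced. The labels do not tie libraries to separate animals, and the tests below weigh differences against a spread between libraries that may be technical.

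Pancreatic duct glands are small mucous outpouchings in the wall of the large ducts and have been discussed as a niche for epithelial renewal. No single gene defines a progenitor cell there. Many markers of this kind are cell surface proteins that have been used to sort clonogenic cells, and most are also carried by ordinary epithelium. Epcam is a homophilic adhesion molecule of simple epithelia, Cd44 a receptor for hyaluronan, Cd24 a small glycoprotein held by a lipid anchor, and Alcam an adhesion molecule of the immunoglobulin superfamily. Cd9 is a tetraspanin that groups integrins and other partners in the membrane. Prom1, known as CD133, is a glycoprotein of membrane protrusions. Bmi1 is the exception in the set, a nuclear Polycomb protein that keeps the Cdkn2a locus silent in self-renewing cells.

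The windows upstream of 4 of these genes are shown, chosen by their levels. Prom1, Bmi1 and Alcam were lowest in the same library, and Cd9 was highest in that library. A link between these sequences and the levels was not tested. Each window is the 250 bases before the start that RefSeq lists in the GRCr8 build, given 5′ to 3′ on the gene's strand. Capitals mark matches, on either strand, to the GC box GGGCGG, the CCAAT box CCAAT, the TATA box TATAAA, the E box CACGTG, the TEAD core GGAATG or the RBPJ core TGGGAA. Prom1 lies at chr14:71202395-71202644 on the plus strand, Bmi1 at chr17:86243994-86244243 on the plus strand, Alcam at chr11:61805207-61805456 on the plus strand and Cd9 at chr4:159975359-159975608 on the minus strand.
Prom1: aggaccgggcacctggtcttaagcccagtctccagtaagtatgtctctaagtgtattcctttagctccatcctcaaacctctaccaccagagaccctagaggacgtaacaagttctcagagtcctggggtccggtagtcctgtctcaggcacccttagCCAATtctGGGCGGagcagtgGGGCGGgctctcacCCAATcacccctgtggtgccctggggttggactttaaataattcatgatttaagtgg
Bmi1: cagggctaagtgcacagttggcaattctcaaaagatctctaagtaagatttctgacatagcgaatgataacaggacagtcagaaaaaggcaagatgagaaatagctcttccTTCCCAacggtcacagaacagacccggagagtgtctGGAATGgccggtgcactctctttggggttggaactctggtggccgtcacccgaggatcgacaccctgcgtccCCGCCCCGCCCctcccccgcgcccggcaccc
Alcam: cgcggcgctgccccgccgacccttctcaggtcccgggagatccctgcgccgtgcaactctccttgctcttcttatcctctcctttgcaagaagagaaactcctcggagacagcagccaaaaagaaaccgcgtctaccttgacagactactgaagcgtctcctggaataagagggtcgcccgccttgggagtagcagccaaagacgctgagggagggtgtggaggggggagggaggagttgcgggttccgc
Cd9: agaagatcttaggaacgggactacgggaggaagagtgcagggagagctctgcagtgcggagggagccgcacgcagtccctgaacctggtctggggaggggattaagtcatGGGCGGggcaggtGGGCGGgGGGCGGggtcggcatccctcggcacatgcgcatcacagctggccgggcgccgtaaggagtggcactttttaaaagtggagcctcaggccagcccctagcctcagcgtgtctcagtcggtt

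The windows of Prom1, Bmi1 and Alcam, the genes lowest in WT26, held no motif common to all 3. Prom1 held 2 GC boxes and 2 CCAAT boxes, Bmi1 2 overlapping GC boxes with 1 TEAD core and 1 RBPJ core, and Alcam no match to the 6 motifs. Cd9 held 3 GC boxes. Of the windows of the same length at 27457 RefSeq genes, 32.4% held a GC box, 34.3% a CCAAT box, 11.8% the TEAD core and 21.6% the RBPJ core. GC content was 53.2% for Prom1, 56% for Bmi1, 60.8% for Alcam and 64% for Cd9, against a median of 52% over these genes. The windows of Epcam and Cd24 were richest in GC among the 7 genes, at 75.6% each, with 33 and 28 CpG pairs against a median of 6. A match is a description of letters, and binding was not measured.

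Libraries held 15141136 to 17574682 reads on the listed genes, and a level in CPM is a gene's reads scaled by the library's total over listed genes. Of the 10 duct markers looked up, 8 were measured and each had reads in every library. Their sum was 7265 to 9149 CPM in HIP and 7544 to 20428 CPM in WT, with WT26 at the top. The libraries stood apart in other ways too, and the bearing of these on the markers was not tested. Beta cell markers summed to 4939 CPM in HIP3 and 11773 CPM in WT4, and all 8 of them were without a read in HIP30 and in WT26. Of 10 cell division genes 6, Mki67 among them, had no read in HIP30.

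Prom1 was the marker that differed most in proportion to its spread. It had 1483, 1292 and 862 CPM in HIP30, HIP2 and HIP3, against 443, 687 and 899 CPM in WT26, WT1 and WT4. HIP30 and HIP2 lay above every WT library, while HIP3 lay below WT4 on this scale of library totals. With TMM factors, which correct each library for a few dominant genes, HIP3 came to 9.78 and WT4 to 9.76 on the log2 scale, so that the groups did not overlap, by a narrow gap. The mean was 1212 ± 319 CPM in HIP and 676 ± 228 CPM in WT (SD, n = 3 each). The difference, HIP minus WT, was 0.79 on the log2 scale, a 1.73-fold ratio (standard error, SE, 0.30), with a 95% interval of 0.10 to 1.48. It did not pass limma's test over all genes (unadjusted p = 0.0295, Benjamini-Hochberg adjusted p = 0.691). The exact permutation test of the 3 against 3 libraries, run on the TMM-scaled log2 values, gave a two-sided p = 0.1. That is the smallest p that this design allows, and for Prom1 it rests on the narrow gap between HIP3 and WT4. Exact p-values of the other 6 members were 0.2 to 0.6.

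In bulk RNA, fewer cells of a type and less RNA per cell cannot be told apart, here and for each gene that follows. Groups did not overlap in the higher direction for 5.27% of the 12102 genes tested, with Prom1 the 1 member among the 7, and in the lower direction for 4.27% with no member. No gene in the genome-wide comparison was called by limma at an adjusted p of 0.05 (0% of genes), and limma-voom called 0 as well. Before adjustment limma placed 792 genes (6.54%) under the threshold of 0.05 and limma-voom 914, and Prom1 was the 1 member among them in either fit. Without WT26 the Prom1 difference was 0.53, and without WT4 it was 0.98, and limma's unadjusted p ran from 0.0161 to 0.103 with single libraries left out. Its sign held in each of the 18 alternative settings, but not all of these could move it. Changes of the filter, of the trended prior or of a term for the title number series leave the estimate at 0.79 by construction. The other pseudocounts also gave 0.79.

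**Figure D1:**
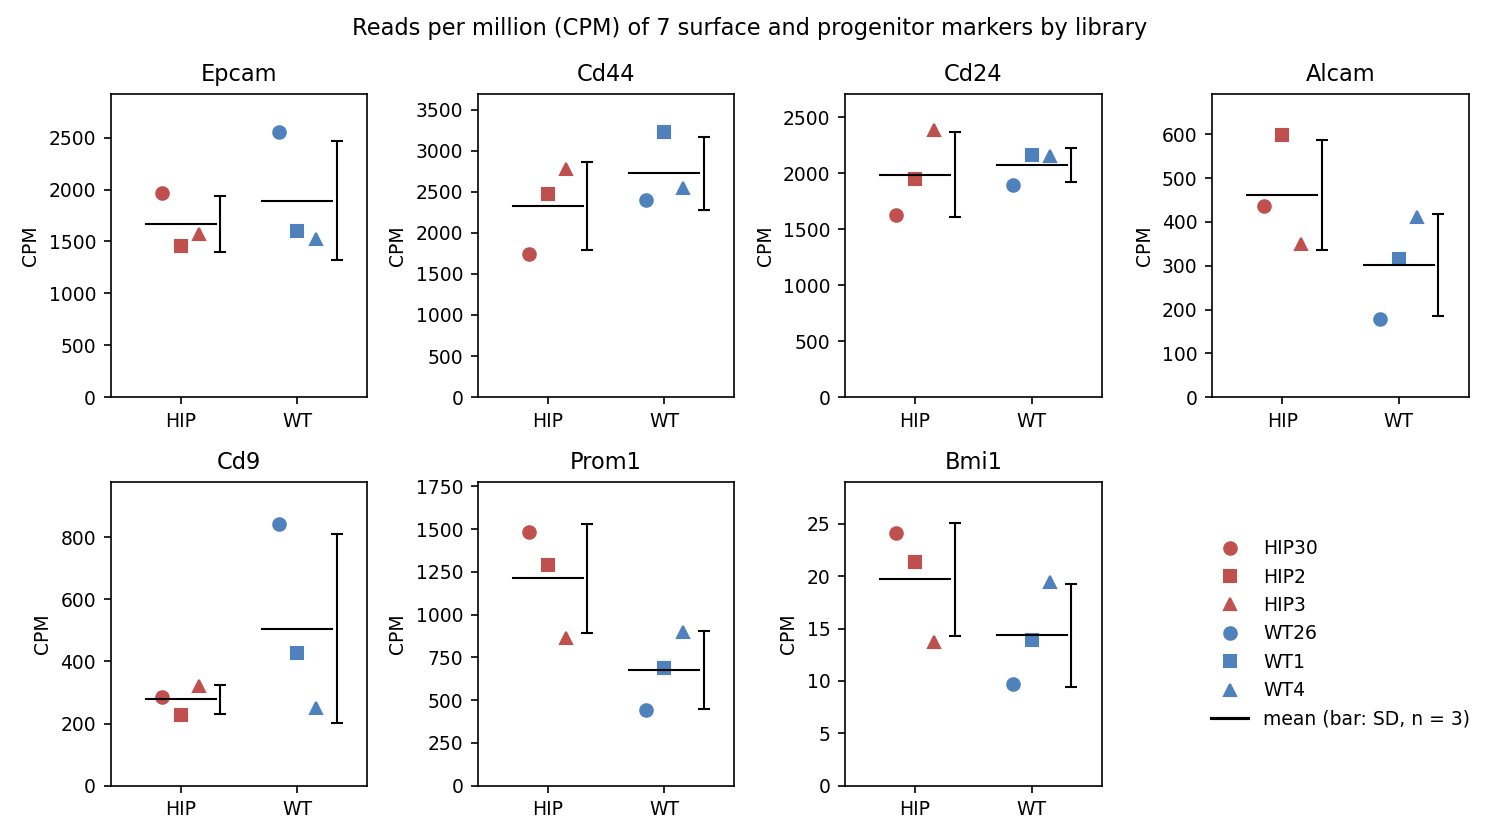
Level of each of the 7 markers in CPM (vertical axis, from 0) in the 3 HIP and 3 WT libraries, with 1 symbol per library, a line at the mean and a bar for the SD. For Prom1 the HIP libraries run from 862 to 1483 CPM and the WT libraries from 443 to 899 CPM, and for Cd9 WT26 stands alone at 840 CPM.

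Alcam and Bmi1 followed the order of Prom1 in part. Alcam had 435, 598 and 350 CPM in HIP30, HIP2 and HIP3, against 179, 314 and 411 CPM in WT26, WT1 and WT4. HIP30 and HIP2 were above every WT library, HIP3 was below WT4, and WT26 was the lowest of all. The log2 difference was 0.58 (SE 0.32), with a 95% interval of -0.15 to 1.31, which did not pass (limma, adjusted p = 0.691). Without WT26 it was 0.27, and without WT4 it was 0.80.

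Bmi1 was read far less deeply, from 171 reads in WT26 to 365 reads in HIP30, so that counting error adds more to its spread than to that of the other members. It had 24.1, 21.4 and 13.7 CPM in HIP30, HIP2 and HIP3, against 9.73, 13.9 and 19.5 CPM in WT26, WT1 and WT4. HIP30 and HIP2 again lay above the WT libraries, and HIP3 lay between WT26 and WT1. The log2 difference was 0.40 (SE 0.34), with a 95% interval of -0.38 to 1.18 (limma, adjusted p = 0.809), and it was 0.16 without WT26 and 0.60 without WT4. Among the libraries numbered 1 to 4 it was 0.045, against 0.41 for Prom1 and 0.33 for Alcam.

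Cd9 had the widest range of the 7 markers over the 6 libraries, 3.93-fold after TMM scaling. It had 286, 228 and 320 CPM in HIP30, HIP2 and HIP3, against 840, 427 and 249 CPM in WT26, WT1 and WT4. The 3 HIP libraries lay close together, whereas the WT libraries spread from within the HIP range to far above it. The mean was 278 ± 46.6 CPM in HIP and 505 ± 303 CPM in WT (SD, n = 3 each). The log2 difference was -0.77 (SE 0.43), with a 95% interval of -1.76 to 0.22 (limma, adjusted p = 0.691). It was -0.30 without WT26 and -1.24 without WT4, a range that held its sign.

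Epcam, the general epithelial marker of the set, had 1971, 1460 and 1576 CPM in HIP30, HIP2 and HIP3, against 2550, 1600 and 1521 CPM in WT26, WT1 and WT4. The groups overlapped, and WT26 was again the highest library. The log2 difference was -0.22 (SE 0.30), with a 95% interval of -0.92 to 0.47 (limma, adjusted p = 0.889). Without WT26 its sign turned, to 0.027, and without WT4 it was -0.41.

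Cd44 and Cd24 were lowest in HIP30, and their groups overlapped. Cd44 had 1737, 2471 and 2771 CPM in HIP30, HIP2 and HIP3, against 2401, 3225 and 2543 CPM in WT26, WT1 and WT4. Its log2 difference was -0.32 (SE 0.33), with a 95% interval of -1.08 to 0.45 (limma, adjusted p = 0.849), and it was -0.073 without HIP30 and -0.50 without HIP3.

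Cd24 had 1629, 1945 and 2382 CPM in HIP30, HIP2 and HIP3, against 1896, 2159 and 2156 CPM in WT26, WT1 and WT4. HIP30 was the lowest library and HIP3 the highest, so that the HIP group enclosed the WT group. This was the marker with the smallest range over the libraries, 1.63-fold after TMM scaling. It also had the smallest difference, -0.15 on the log2 scale (SE 0.28). The 95% interval ran from -0.80 to 0.50 (limma, adjusted p = 0.933). Without HIP30 the sign turned, to 0.031, and without HIP3 the difference was -0.33.

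**Figure D2:**
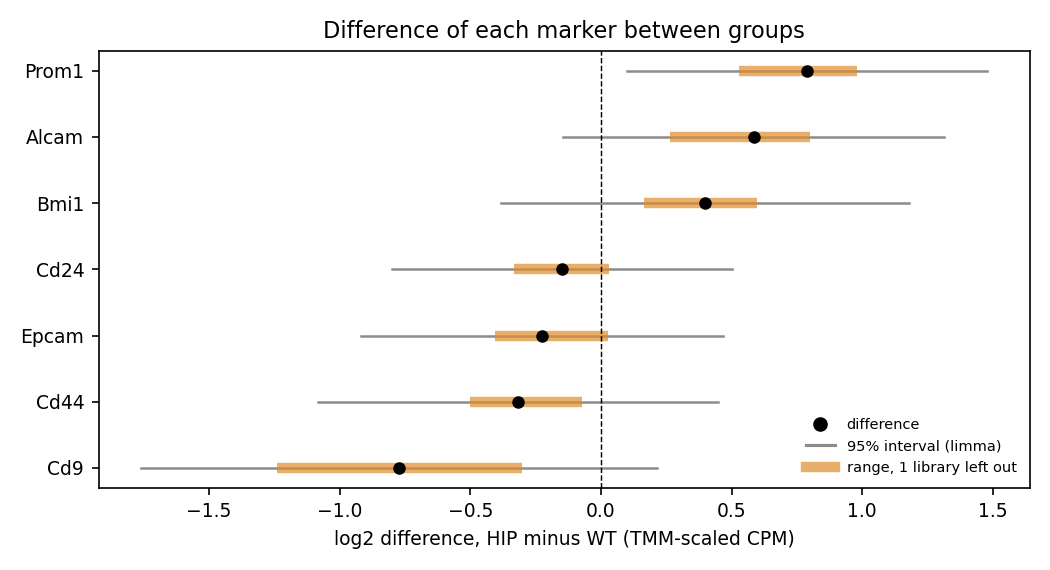
Difference of each marker between HIP and WT on the log2 scale (horizontal axis), with limma's 95% interval as a thin line and the range over fits with 1 library left out as a thick band. The interval of Prom1, 0.10 to 1.48, is the one that stays above 0 before adjustment over all genes, and the band of Cd9 spans -1.24 to -0.30.

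Over the libraries the 7 markers formed opposed profiles rather than a common shift, with 3 positive and 4 negative differences and a median of -0.15, against 51.1% positive differences and a median of 0.0097 over all genes tested. Prom1, Bmi1 and Alcam were lowest in WT26, and Epcam and Cd9 were highest there. Cd44 and Cd24 kept to the middle in WT26 and were lowest in HIP30. Over the 6 libraries Pearson's r was 0.94 between Prom1 and Bmi1, 0.90 between Prom1 and Alcam, 0.91 between Epcam and Cd9, 0.93 between Cd44 and Cd24 and -0.94 between Alcam and Cd9. These are descriptions of 6 points that share their depth and scaling. Of 21 pairs 5 were above 0.85 and 4 below -0.85, and the pairs named were picked from these. Without WT26 r was 0.85 between Prom1 and Bmi1, 0.70 between Prom1 and Alcam, 0.56 between Epcam and Cd9 and -0.76 between Alcam and Cd9, and without HIP30 it was 0.75 between Cd44 and Cd24. For Epcam with Prom1, Bmi1 and Alcam r was -0.72, -0.74 and -0.91 over the 6 libraries. Without WT26 these were 0.036, -0.11 and -0.61. For Cd9 with Prom1 and Bmi1 r was -0.90 and -0.92, and -0.71 and -0.78 without WT26.

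For 5 of the 7 markers the spread within groups was wider than the median of genes at a like level. The SD of log2 values within groups was 0.69 for Cd9, 0.48 for Alcam, 0.41 for Prom1, 0.36 for Cd44 and 0.34 for Epcam. The median SD of the 500 tested genes nearest in level was 0.28 for Cd9 and Alcam and 0.29 for Prom1, Cd44 and Epcam. Cd24, at 0.26, and Bmi1, at 0.40, lay just below the medians of their neighbours, 0.29 and 0.41.

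**Figure D3:**
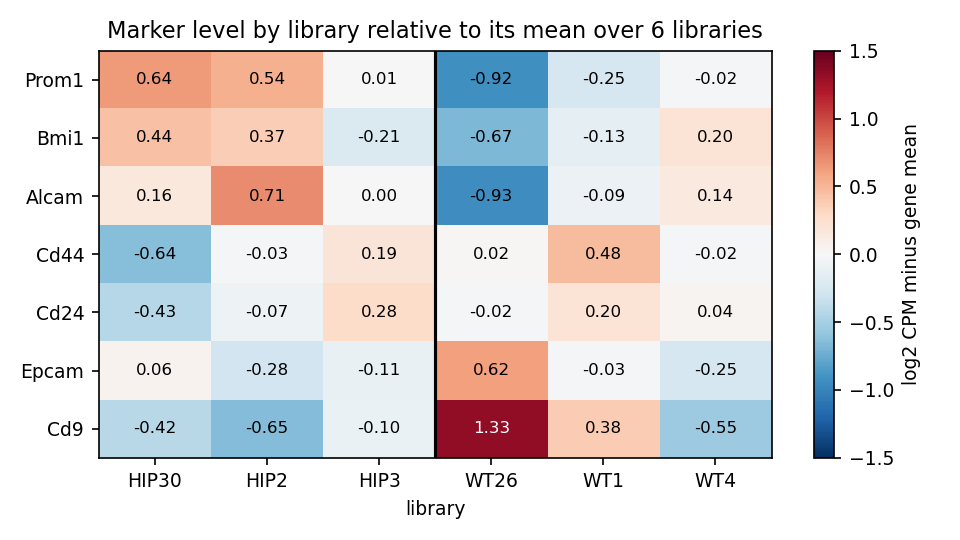
Level of each marker (rows) in each library (columns, HIP left of the line, WT right of it), as log2 CPM after TMM scaling minus the gene's mean over the 6 libraries. WT26 holds the lowest cells of Prom1, at -0.92, Bmi1, at -0.67, and Alcam, at -0.93, and the highest cells of Epcam, at 0.62, and Cd9, at 1.33.

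Some lists of markers of other cells were lowest in HIP30 or WT26, and others were not. Endothelial and acinar markers were lowest in WT1, at 175 and 24.4 CPM in sum, and highest in WT4 and HIP3, at 331 and 124 CPM. The 10 fibroblast markers, all measured, summed to 491 to 1759 CPM in HIP and 1394 to 2336 CPM in WT, with HIP30 lowest, as for Cd44 and Cd24, and Mfap5 without a read in WT26 and WT1. The 10 cell division genes summed to 107 CPM in HIP30, 396 CPM in HIP2 and 2145 CPM in HIP3, against 1506 to 2188 CPM in WT. The 9 measured myeloid markers summed to 327 to 2403 CPM in HIP and 73.1 to 548 CPM in WT, lowest in WT26. Mpeg1, a macrophage gene, made up most of the sums in HIP30 and HIP2, with 2097 and 1979 CPM, against 141 CPM in HIP3 and 0, 169 and 192 CPM in WT26, WT1 and WT4. Without Mpeg1 the myeloid sums were 186 to 307 CPM in HIP and 73.1 to 356 CPM in WT, with WT4 highest. The 10 markers of other islet endocrine cells summed to 118 to 321 CPM in HIP and 2.45 to 288 CPM in WT, and 8 of them were without a read in WT26. Without Sst, the somatostatin gene, which had 267 and 175 CPM in HIP30 and HIP2, these sums were 51.9 to 108 CPM in HIP and 2.45 to 252 CPM in WT. Ptprc, the antigen common to leukocytes, had 73.8, 75.7 and 71.5 CPM in HIP30, HIP2 and HIP3, against 51.9, 62.8 and 94.2 CPM in WT26, WT1 and WT4. The part of these cells in the levels of the 7 markers was not tested.

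The genes closest to a marker in pattern were sought for the 3 markers with the widest range, by the root mean square difference of centred log2 values over the 6 libraries among 12101 other tested genes. For Cd9 these were Wfdc1, at 0.11, Krt19, at 0.14, and LOC679462, at 0.14. The duct keratin Krt19 had 1759, 1540 and 2254 CPM in HIP30, HIP2 and HIP3, against 6992, 2867 and 1887 CPM in WT26, WT1 and WT4, lowest in HIP2 and highest in WT26, as was Cd9. For Alcam they were Mir3554, LOC688765 and Spata6, at 0.064 to 0.081, and for Prom1 they were Peli2, Phf15 and Elmo1, at 0.057 to 0.084. Within a difference of 0.2 lay 22 genes for Cd9, 78 for Alcam and 112 for Prom1, which is 0.182%, 0.645% and 0.926% of the genes compared.

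Other proposed progenitor markers gave differences in both directions. Of 25 tested genes 9 were positive and 16 negative, with a median of -0.31 (-0.36 to -0.19 with single libraries left out), and 0 passed limma's test. Lgr5, a Wnt-linked receptor of gut stem cells, had 114, 103 and 92.2 CPM in HIP30, HIP2 and HIP3, against 31.2, 42.6 and 102 CPM in WT26, WT1 and WT4. WT4 lay within the HIP values, and the difference of 0.93 did not pass (limma, adjusted p = 0.691). Its relative Lgr4 differed by 0.055 and Dclk1, a kinase of tuft cells, by 0.16.

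Prom2, the relative of Prom1, lay in the other direction from Prom1, with 1.72, 0.994 and 2.15 CPM in HIP30, HIP2 and HIP3, against 6.94, 3.04 and 2.40 CPM in WT26, WT1 and WT4. Each HIP library lay below each WT library, and the difference of -1.27 had an SE of 0.61 (limma, adjusted p = 0.691). Tnfrsf19, a receptor of the TNF family, reached at most 0.479 CPM in HIP against 1.02 to 2.46 CPM in WT and had no read in HIP30. Olfm4, a secreted marker of crypt stem cells, stayed between 0.398 and 4.93 CPM in the 6 libraries. Beyond these, Abcg2, a drug efflux pump, was singled out after its values were seen, with 16.2, 19.2 and 9.40 CPM in HIP30, HIP2 and HIP3, against 1.54, 4.76 and 9.36 CPM in WT26, WT1 and WT4.

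A list of Epcam partners, junction genes, keratins and other genes of simple epithelium leaned to lower values in HIP. Of 20 tested genes 17 were below 0 in HIP minus WT and 0 passed, while 51.1% of all genes tested were positive. The median was -0.35, but it was -0.19 without WT26, where 14 genes were negative, and -0.55 without WT4. The lowest differences were those of the keratins Krt8, Krt19 and Krt18, at -1.01, -0.95 and -0.80. Cldn7, the claudin that binds Epcam, had 80.9, 108 and 181 CPM in HIP30, HIP2 and HIP3, against 132, 216 and 168 CPM in WT26, WT1 and WT4. Its difference was -0.60 (limma, adjusted p = 0.692). Cdh1, the E-cadherin of adherens junctions, differed by -0.37 and Jup, plakoglobin, by -0.68.

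Partners of Cd44 lay in both directions. Spp1, osteopontin, a ligand of Cd44, had 2110, 1405 and 630 CPM in HIP30, HIP2 and HIP3, against 265, 373 and 851 CPM in WT26, WT1 and WT4, a difference of 1.42 (SE 0.50). Has2, a hyaluronan synthase, had 0.991, 2.67 and 1.80 CPM in HIP30, HIP2 and HIP3, against 4.38, 4.30 and 4.61 CPM in WT26, WT1 and WT4, a difference of -1.40 (SE 0.53). The groups did not overlap for Has2 and overlapped for Spp1, and neither passed (limma, adjusted p = 0.691 for each). Esrp1, an epithelial splicing regulator that acts on Cd44, differed by -0.47 and Cd74 by 0.58. Of 15 tested partners 8 were positive and 7 negative, with a median of 0.031 (-0.10 to 0.054 with single libraries left out).

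Polycomb genes gave 14 positive and 5 negative differences of 19, with a median of 0.11 (0.013 to 0.15 with single libraries left out) and 0 called. Cbx6 had 24.2, 17.1 and 12.0 CPM in HIP30, HIP2 and HIP3, against 3.76, 5.90 and 14.0 CPM in WT26, WT1 and WT4, a difference of 1.24 (SE 0.49, limma adjusted p = 0.691). Pcgf1, a relative of Bmi1, differed by 0.48 and Pcgf2, a close relative known as Mel18, by 0.064. Rnf2, the catalytic partner of Bmi1, differed by 0.20 and Ezh2, the methyltransferase of the second Polycomb complex, by -0.31.

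Tetraspanins and their partners also lay on both sides of 0. Of 17 tested genes 6 were positive and 11 negative, with a median of -0.084 (-0.20 to -0.00098 with single libraries left out) and 0 called. Cd81 and Cd63 differed by 0.023 and -0.084, and the Cd9 partners Ptgfrn and Igsf8 by -0.0012 and -0.32. Tspan13 and Tspan14 had the lowest unadjusted p of the list, with differences of 0.44 and -0.58, and Cd151 differed by -0.35.

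The remaining lists were short. Of 7 relatives and partners of Alcam 4 were positive, and the adhesion molecules Nrcam and L1cam differed by 1.70 and -0.73. Nrcam had 204, 193 and 65.7 CPM in HIP30, HIP2 and HIP3, against 16.4, 41.2 and 94.6 CPM in WT26, WT1 and WT4, so that HIP3 lay below WT4 as it did for Alcam. Of 7 tested genes around Lrig1, its relative Lrig2 differed by 0.15, and Egfr, Erbb2 and Erbb3, receptors that Lrig1 restrains, by -0.17, 0.035 and -0.19, while Met and Ret differed by 0.67 and 0.96. Of 9 tested genes around Msi2, Msi1 stayed between 0.120 and 2.31 CPM in the 6 libraries, and Numb and Jag1 differed by 0.098 and -0.51. Cdkn1a, a cell cycle inhibitor of that list, had 48.4, 52.9 and 81.04 CPM in HIP30, HIP2 and HIP3, against 168, 124 and 92.8 CPM in WT26, WT1 and WT4, without overlap. Its difference of -1.14 had an SE of 0.32 and did not pass (limma, adjusted p = 0.691).

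**Figure D4:**
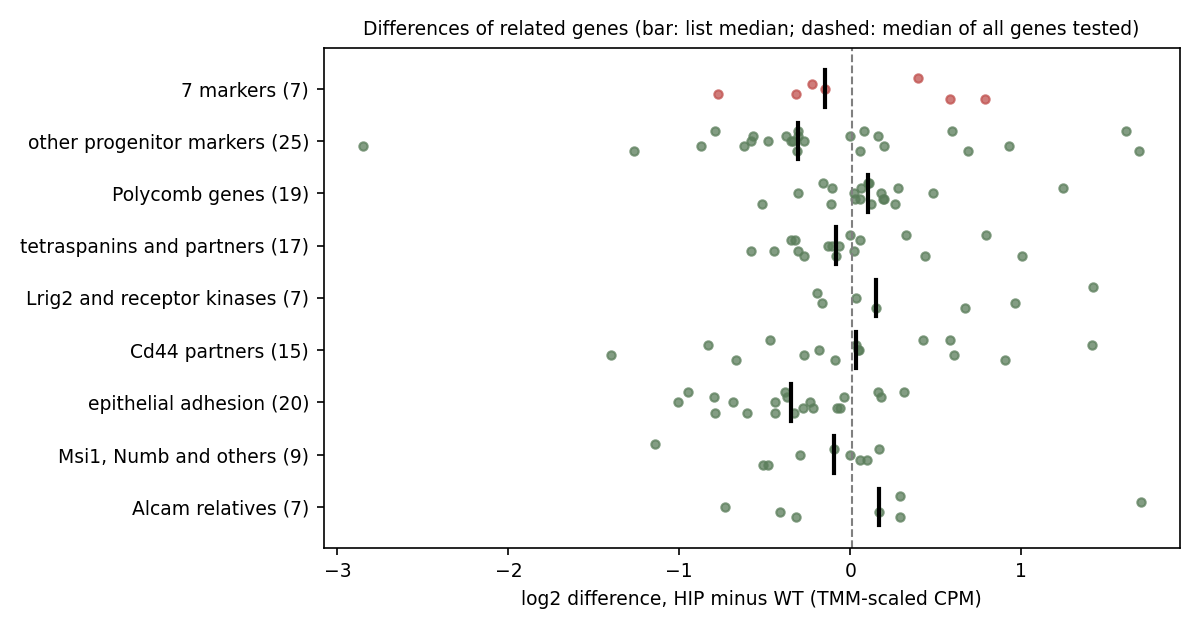
Difference between HIP and WT on the log2 scale (horizontal axis) for each tested gene of the 7 markers and of 8 lists of related genes (rows, with the number of genes in brackets), with a bar at each median and a dashed line at the median of all genes tested. The medians lie between -0.35 for the list labelled epithelial adhesion, which includes keratins, and 0.17 for the relatives of Alcam. The genes of each list lie on both sides of 0.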

How the data were processed

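RNA of laser-captured pancreatic duct glands was read in 3 HIP and 3 WT libraries. The authors deposited 1 table per library of log2 CPM values with a prior for 15679 gene rows. STAR, HTSeq, edgeR, limma and the build rn5 are named, per the submitters' processing notes; versions, roles and strandedness are not given in the sources used here. Genes without reads share the value -6.04, which equals 0.25 reads of a mean library, and after removal of this prior 100% of values in each library were whole reads within 0.1 reads. The 4 rows that share a symbol were left out. Without strand information, reads where genes overlap on opposite strands cannot be assigned to 1 of them. Reads that match paralogs equally well were not examined here.

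Groups came from the titles. TMM factors (0.933 to 1.09; trims of 30% and 5%) were computed from the recovered reads. A gene was tested if 3 libraries reached 0.61 CPM, which is 10 reads of the median library, and its reads summed to 15, which left 12102. The values were log2 of TMM-scaled CPM with a pseudocount of 2 average reads (0.121 CPM), which understates changes of low genes. They were fitted with limma 3.58.1 (R 4.3.3, trended prior), two-sided, at a Benjamini-Hochberg adjusted p of 0.05. The steps were tested on simulated reads with planted changes larger than the difference of any member. That test does not cover differences of the members' size. Printed CPM use library totals.

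Members and lists were chosen with earlier results of these data known. Named genes were the members, the 2 tested genes of lowest unadjusted p per list, fixed relatives and context markers, and the 3 genes closest in pattern to each of 3 members. The values of 1 listed gene are not reported here. Alternatives changed scaling, filter, pseudocount, model and libraries. Values from the 4 libraries numbered 1 to 4 were added after the data were seen. Title numbers are not stated to be batches. The steps used Python 3.11.15 and matplotlib 3.10.9, and sequences are RefSeq's for GRCr8.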

Additional observations from a re-analysis of the deposited data

How the results depend on the processing

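No paired analysis was possible because the groups share no replicate number. Over 18 alternatives 0 genes and 0 members were called. In 126 recomputed member differences the sign turned in 2, for Cd24 without HIP30 (0.031, in a range down to -0.33) and for Epcam without WT26 (0.027, in a range down to -0.41). Part of the 126 could not turn, because a change of filter, of the trended prior or of a title number term leaves the difference as it was. The median difference over the members, -0.15, ran from -0.23 to 0.031 with libraries left out, and was -0.017 among the libraries numbered 1 to 4; the cause was not tested. Genes at an unadjusted p under 0.05 numbered 792, and 2388 by limma-voom with quality weights, 154 among the libraries numbered 1 to 4, 1803 without HIP3, 1605 without WT4, 233 without HIP2, 274 without HIP30, 328 without WT1 and 338 without WT26. The smallest adjusted p of a member was 0.157, for Prom1 by limma-voom with quality weights, and it was 0.226 without HIP3. Bmi1 had the fewest reads of the members, 171 to 365.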

Other observations

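The markers were also set against Epcam reads of the same library, a choice made after the data were seen. This ratio is free of the scaling between libraries. Epcam is itself a member and was highest in WT26, which lowers the ratios of that library. Prom1 had 75.3, 88.5 and 54.7 reads per 100 Epcam reads in HIP30, HIP2 and HIP3, against 17.4, 42.9 and 59.1 in WT26, WT1 and WT4, so that HIP3 lay below WT4. Alcam had 22.1 to 41.0 reads per 100 Epcam reads in HIP and 7.04 to 27.0 in WT, and Cd9 had 14.5 to 20.3 in HIP and 16.4 to 33.0 in WT. The groups overlapped for each of the 6 markers so compared. Against the keratin gene Krt8, also highest in WT26, Cd9 had 10.9 to 16.3 reads per 100 Krt8 reads in HIP and 10.1 to 13.0 in WT. Prom1 had 29.4 to 84.4 in HIP and 5.32 to 41.1 in WT, and Alcam 11.9 to 35.8 in HIP and 2.15 to 18.8 in WT. With Krt8 too the groups overlapped for each of the 6 markers.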
